A study of Mus musculus with 3 samples.

Results

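Saa3, Lcn2, Slpi, Wfdc17 and Wfdc21 encode small secreted proteins of the acute-phase and antimicrobial response, and their transcripts were followed through CD45+ cells of the mouse pancreas by scRNA-Seq. These 5 genes, of 31053 in the matrices and 21020 with at least 1 unique molecular identifier (UMI, a tag that marks 1 captured RNA molecule), are acute-phase, lipocalin and whey acidic protein genes that were selected on measured values, chosen by their higher UMI levels after WGP than in PBS in these same libraries. Their differences from PBS are therefore a description, and no test was made of them. All 5 had UMIs in every library.

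The data comprised 1 library for each of 3 groups: PBS, 3-day WGP (harvest 3 days after WGP) and 7-day WGP (harvest after 7 days). WGP is a particulate β-glucan from Saccharomyces cerevisiae that was injected into the peritoneum, and the study used C57BL/6J mice of 6 to 8 weeks, of both sexes. Live CD45+ cells were sorted from the digested pancreas, but how many mice went into a library is not given in the sources used here. Both WGP libraries were set against the same PBS library.

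Barcodes with at least 1000 UMIs numbered 5689, 5085 and 4521 (in the order PBS, 3-day WGP, 7-day WGP, used throughout), and 4851, 4525 and 3937 were kept as cells, with a median of 5631, 5466 and 7892 UMIs. A level is the UMIs of a gene summed over the cells of a class in a library and scaled to 1000000 UMIs of that class (CPM). With 1 library per group there was no replicate check, and every interval is an exact 95% interval that covers counting error only. In such sums, fewer cells that carry a gene and less RNA per cell cannot be told apart, so per-cell values are given where they matter. Cell classes are clusters named from marker genes and are called by the short name, so that "macrophages" stands for macrophage-like clusters. The clustering did not use the 5 genes. Ptprc, which encodes CD45, had a UMI in 88.2%, 87.0% and 94.2% of kept cells, but in only 0 of 23, 7 of 28 and 3 of 9 fibroblasts.

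Serum amyloid A3, the product of Saa3, is an acute-phase apolipoprotein that macrophages and other cells outside the liver make during inflammation. Lipocalin 2, the product of Lcn2, binds iron-loaded siderophores and so withholds iron from bacteria, and it is stored in neutrophil granules. Slpi encodes secretory leukocyte protease inhibitor, which blocks neutrophil elastase and cathepsin G. It carries the whey acidic protein fold, a small disulfide core that Wfdc17 and Wfdc21 also encode. Transcription of acute-phase genes is commonly driven by C/EBP, NF-kB and STAT3 factors downstream of IL-1, TNF and IL-6.

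Saa3 (ENSMUSG00000040026) lies on the minus strand of mouse chromosome 7 at 46711998 to 46715700 (GRCm38, GENCODE vM21), followed by Saa4, Saa1 and Saa2. Lcn2 (ENSMUSG00000026822) and Slpi (ENSMUSG00000017002) are on the minus strand of chromosome 2, at 32384633 to 32388252 and at 164354070 to 164389095. Wfdc17 (ENSMUSG00000069792) and Wfdc21 (ENSMUSG00000051748) are on the plus strand of chromosome 11, at 83703991 to 83706268 and at 83746940 to 83752642. They are 40671 bases apart with 1 protein-coding gene, Wfdc18, between them. All 5 are protein coding.

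The 250 bases before the RefSeq start site (GRCm38.p6) are shown for Saa3, Slpi and Lcn2, because the first pair were high together in the macrophages and Lcn2 was not. RefSeq and GENCODE place the starts differently. The whole Slpi and Lcn2 windows lie inside the GENCODE spans given above. Capitals mark a match to the C/EBP motif TTGCNNAA on either strand, and each sequence is given 5′ to 3′ on the strand of the gene.
Saa3, chr7:46715677-46715926, minus strand: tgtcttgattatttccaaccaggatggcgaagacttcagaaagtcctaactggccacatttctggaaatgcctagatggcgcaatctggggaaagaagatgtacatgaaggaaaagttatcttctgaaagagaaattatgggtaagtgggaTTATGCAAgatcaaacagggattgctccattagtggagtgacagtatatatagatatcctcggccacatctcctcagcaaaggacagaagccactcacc
Slpi, chr2:164356508-164356757, minus strand: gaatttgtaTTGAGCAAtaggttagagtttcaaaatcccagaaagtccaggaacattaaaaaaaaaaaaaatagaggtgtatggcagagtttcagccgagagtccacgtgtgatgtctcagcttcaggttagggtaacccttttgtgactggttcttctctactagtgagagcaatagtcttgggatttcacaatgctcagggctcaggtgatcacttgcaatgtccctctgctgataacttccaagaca
Lcn2, chr2:32387740-32387989, minus strand: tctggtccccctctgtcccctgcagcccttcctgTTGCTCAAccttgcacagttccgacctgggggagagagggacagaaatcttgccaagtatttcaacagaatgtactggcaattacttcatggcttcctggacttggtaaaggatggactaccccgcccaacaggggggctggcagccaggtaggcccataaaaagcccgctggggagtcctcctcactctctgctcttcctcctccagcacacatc
The match began 99 bases before the start site in Saa3, 241 bases in Slpi and 216 bases in Lcn2. It was present in 9.56% of 32851 RefSeq windows of the same length. The Wfdc17 window held none. RefSeq promoters were found for 4 of the 5 genes, all but Wfdc21. An NF-kB motif (in 1.41% of windows), the STAT letters TTCNNNGAA (7.02%) and the AP-1 letters TGANTCA (6.75%) were also searched on both strands. So were the letters TATAAA (12.4%). None of these was matched in the 4 windows. Only these exact letters were searched, so sites of the same factors with other letters would be missed. A match describes letters only and is not a measured binding site.

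Over all kept cells, Saa3, Slpi and Wfdc17 were higher in both WGP libraries, and Lcn2 and Wfdc21 were lower. Saa3 was at 27.4, 3191 and 2378 CPM. Slpi was at 106, 372 and 334 CPM. Wfdc17 was at 291, 884 and 751 CPM. These 3 genes thus stood well above PBS at both times, Saa3 by a log2 ratio of 6.87 (6.78 to 6.95) at 3 days and 6.44 (6.36 to 6.53) at 7 days. Lcn2, in contrast, was at 169, 90.7 and 52.2 CPM, with log2 ratios of -0.90 and -1.69. Wfdc21 was at 53.1, 41.1 and 30.8 CPM, with log2 ratios of -0.37 and -0.79. So the description of all 5 as higher after WGP held for 3 of them in the whole sort, while for Lcn2 and Wfdc21 it held only within some cell classes. By a 2-fold change with 10 CPM added to both levels, 3 of the 5 members were higher at both times, beside 1.14% and 3.82% of the 7696 genes measured, and 0 and 1 (Lcn2) were lower, beside 0.78% and 1.47%.

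**Figure D1:**
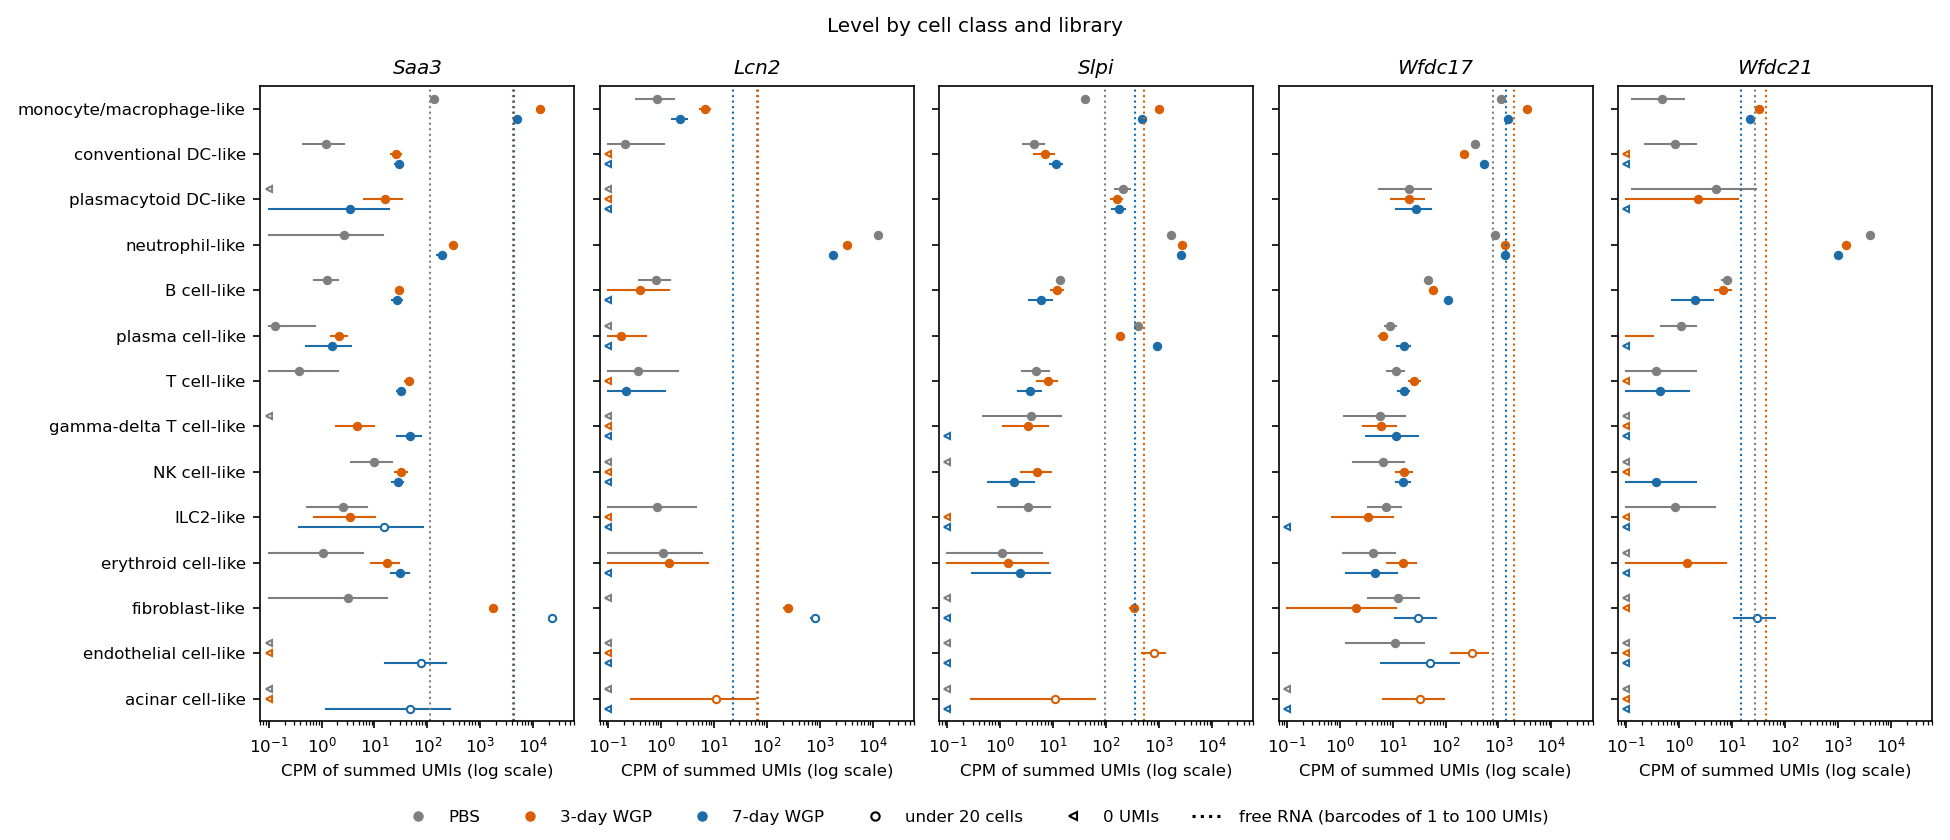
Level of each gene (x axis, CPM of summed UMIs, log scale) by cell class (y axis) and library (colour), with 95% counting intervals, open circles for classes under 20 cells, arrowheads for 0 UMIs and dotted lines for free RNA in barcodes of 1 to 100 UMIs. Saa3 was highest in monocyte/macrophages and fibroblasts after WGP, Lcn2 and Wfdc21 in neutrophils, and Slpi was spread over neutrophils, plasma cells and monocyte/macrophages.

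Saa3 was a gene of monocyte/macrophages in these libraries. That class, of 808, 753 and 1456 cells, held 96.4%, 98.1% and 90.9% of the Saa3 UMIs of kept cells. Its Saa3 level was 134 (126 to 142), 13397 (13329 to 13465) and 4953 (4920 to 4987) CPM. Both WGP levels were far above PBS, and the 3-day level was above the 7-day level. The log2 ratio to PBS was 6.65 (6.56 to 6.73) at 3 days and 5.21 (5.12 to 5.30) at 7 days, and that of 7 days to 3 days was -1.44 (-1.45 to -1.42).

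After each cell was thinned to 1000 UMIs, 1.98%, 50.6% and 34.9% of monocyte/macrophages had a Saa3 UMI. Without thinning the shares were 4.58%, 72.4% and 60.4%, at median depths of 9930.5, 13816 and 10670 UMIs. B cells, which are not known to make Saa3, had thinned shares of 0.0517%, 2.13% and 2.04%, and unthinned shares of 0.671%, 11.2% and 12.2% at medians of 3843, 4125 and 4917 UMIs. The macrophage shares after WGP were thus above the background that B cells showed, and in PBS the level came from very few cells.

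In PBS the 10 cells with most Saa3 held 96.9% of the class's 1109 UMIs, and the highest of them held 481. A further PBS barcode, removed for its doublet score, held 1174 Saa3 UMIs, more than the 1150 UMIs of all kept PBS cells. With doublets kept, the log2 ratios were 5.74 and 4.30. With the 10 highest cells of each library left out they were 11.51 and 9.95. The direction was the same each time, but the size of the ratio turned on how a few PBS cells were treated.

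The order of classes by Saa3 level differed between libraries. At 3 days monocyte/macrophages were followed by fibroblasts (1721 CPM), neutrophils (302). T cells (45.8, 38.3 to 54.3) and NK cells (31.7, 24.3 to 40.5) had overlapping intervals, as did NK cells, B cells (29.6) and conventional dendritic cells (25.9). At 7 days fibroblasts (22143 CPM) came first, ahead of monocyte/macrophages and of neutrophils (185). Gamma-delta T cells, T cells, conventional dendritic cells, NK cells and B cells were between 27.0 and 46.4 CPM there, with overlapping intervals. In PBS every class but monocyte/macrophages was under 10 CPM. Plasma cells, the deepest class, were at 0.134, 2.17 and 1.55 CPM.

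Within the monocyte/macrophages, Saa3 was concentrated in 1 sub-cluster, led by Arg1 (arginase 1, a marker of alternatively activated macrophages), Cd5l, Gpnmb and Marco. Prg4 and Fabp5 were also among its leading genes, and Cd5l and Prg4 are on the marker list of large peritoneal macrophages. The sub-cluster held 9, 399 and 275 cells, which were 1.11%, 53.0% and 18.9% of the class. It took 87.1%, 95.2% and 74.4% of all Saa3 UMIs of kept cells. Its Saa3 level was 5759 (5408 to 6127), 20954 (20846 to 21062) and 16344 (16222 to 16468) CPM. Against PBS its log2 ratio was 1.86 (1.77 to 1.95) at 3 days and 1.505 (1.41 to 1.60) at 7 days, well under the ratios of the whole class. With the highest cell of each library left out, they were 2.596 and 2.22, still under the class ratios of 7.44 and 5.99 found in that way.

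The 9 PBS cells of this sub-cluster differed from the WGP cells in other genes. Arg1 was at 69.0 CPM in them (12 UMIs) and at 1444 and 1786 CPM in the WGP cells. Alox15, an arachidonate lipoxygenase of peritoneal macrophages, was at 1454, 106 and 71.3 CPM. Gpnmb was at 943, 519 and 714 CPM. The genes of large peritoneal macrophages were the second-best marker list of this sub-cluster, and the 9 cells are few, so the PBS level of the sub-cluster is a weak reference.

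Single cells of the sub-cluster spanned the whole range of Saa3. In PBS 4 of the 9 cells had no Saa3 UMI, the median was 86.7 CPM and the highest was 21912 CPM. At 3 days 37 of 399 cells had none, the median was 15994 CPM and the 25th and 75th percentiles were 1729 and 32481 CPM. At 7 days 10 of 275 cells had none, the median was 9855 CPM and the same percentiles were 3154 and 20963 CPM. In both WGP libraries the highest cell was at 101230 and 100980 CPM. Saa3 was thus present in most WGP cells of the sub-cluster, at levels that varied widely from cell to cell.

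**Figure D2:**
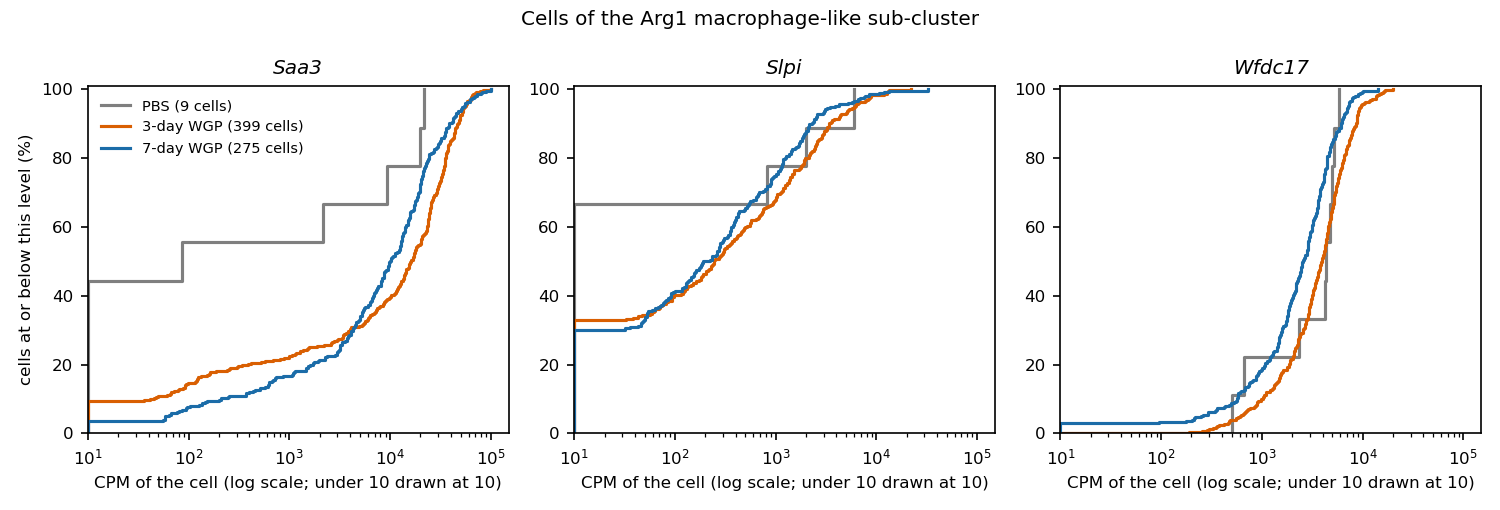
Share of the cells of the Arg1 macrophage-like sub-cluster (y axis, percent) at or below a level of Saa3, Slpi or Wfdc17 (x axis, CPM of the cell, log scale, values under 10 drawn at 10), 1 line per library of 9 PBS, 399 3-day WGP and 275 7-day WGP cells. Median Saa3 was 86.7, 15994 and 9855 CPM, whereas Wfdc17 was already high in the PBS cells, with a median of 4364 CPM.

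Saa3 was not limited to that sub-cluster after WGP. In the rest of the class it was at 13.2 (10.8 to 15.9), 1048 (1017 to 1079) and 1195 (1177 to 1215) CPM, log2 ratios of 6.31 (6.03 to 6.60) and 6.50 (6.23 to 6.79). Here the 7-day level was slightly above the 3-day level, the reverse of the whole class, with a log2 ratio of 0.19 (0.14 to 0.24). At 3 days 1859 of the 4450 UMIs lay in 12 cells of an unnamed sub-cluster led by Igkc, Ighm and Cd79a, which are B cell genes. Without the unnamed sub-clusters the rest of the class was at 2.75 (1.70 to 4.20), 585 (560.0 to 611) and 1093 (1075 to 1112) CPM, and the log2 ratios were 7.73 and 8.64, from 21 UMIs in PBS. The 10 highest cells then held 72.9% of the UMIs at 3 days. Inflammatory macrophages, led by Cxcl10 and Cxcl9, were at 0, 2313 and 1721 CPM from 2, 23 and 527 cells. Ly6C-high monocytes, led by Ccr2 and Vcan, were at 18.9, 479 and 308 CPM from 19, 146 and 474 cells. Ly6C-low patrolling monocytes, led by Ace and Ear2, were at 6.55, 75.6 and 39.0 CPM.

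The resident macrophages, which made up most of the class in PBS, had little Saa3 there. The sub-cluster led by Fcrls (354, 43 and 19 cells) was at 1.53, 755 and 43.7 CPM, and 1 cell held 293 of its 332 UMIs at 3 days. That led by Cd209f and Cd163 (210, 44 and 9 cells) was at 2.82, 100.7 and 64.9 CPM. A proliferating sub-cluster led by Stmn1 and Top2a was named resident from its pooled cells, 52 of 63 of which came from PBS. It had 0 UMIs in the 52 PBS cells and 1451 UMIs in 8 cells at 7 days. Whether those 8 cells are resident macrophages was not tested. An unnamed sub-cluster led by Cxcl13, Vsig4 and Timd4 was at 207 and 1413 CPM in PBS and 3-day WGP and had no cells at 7 days.

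**Figure D3:**
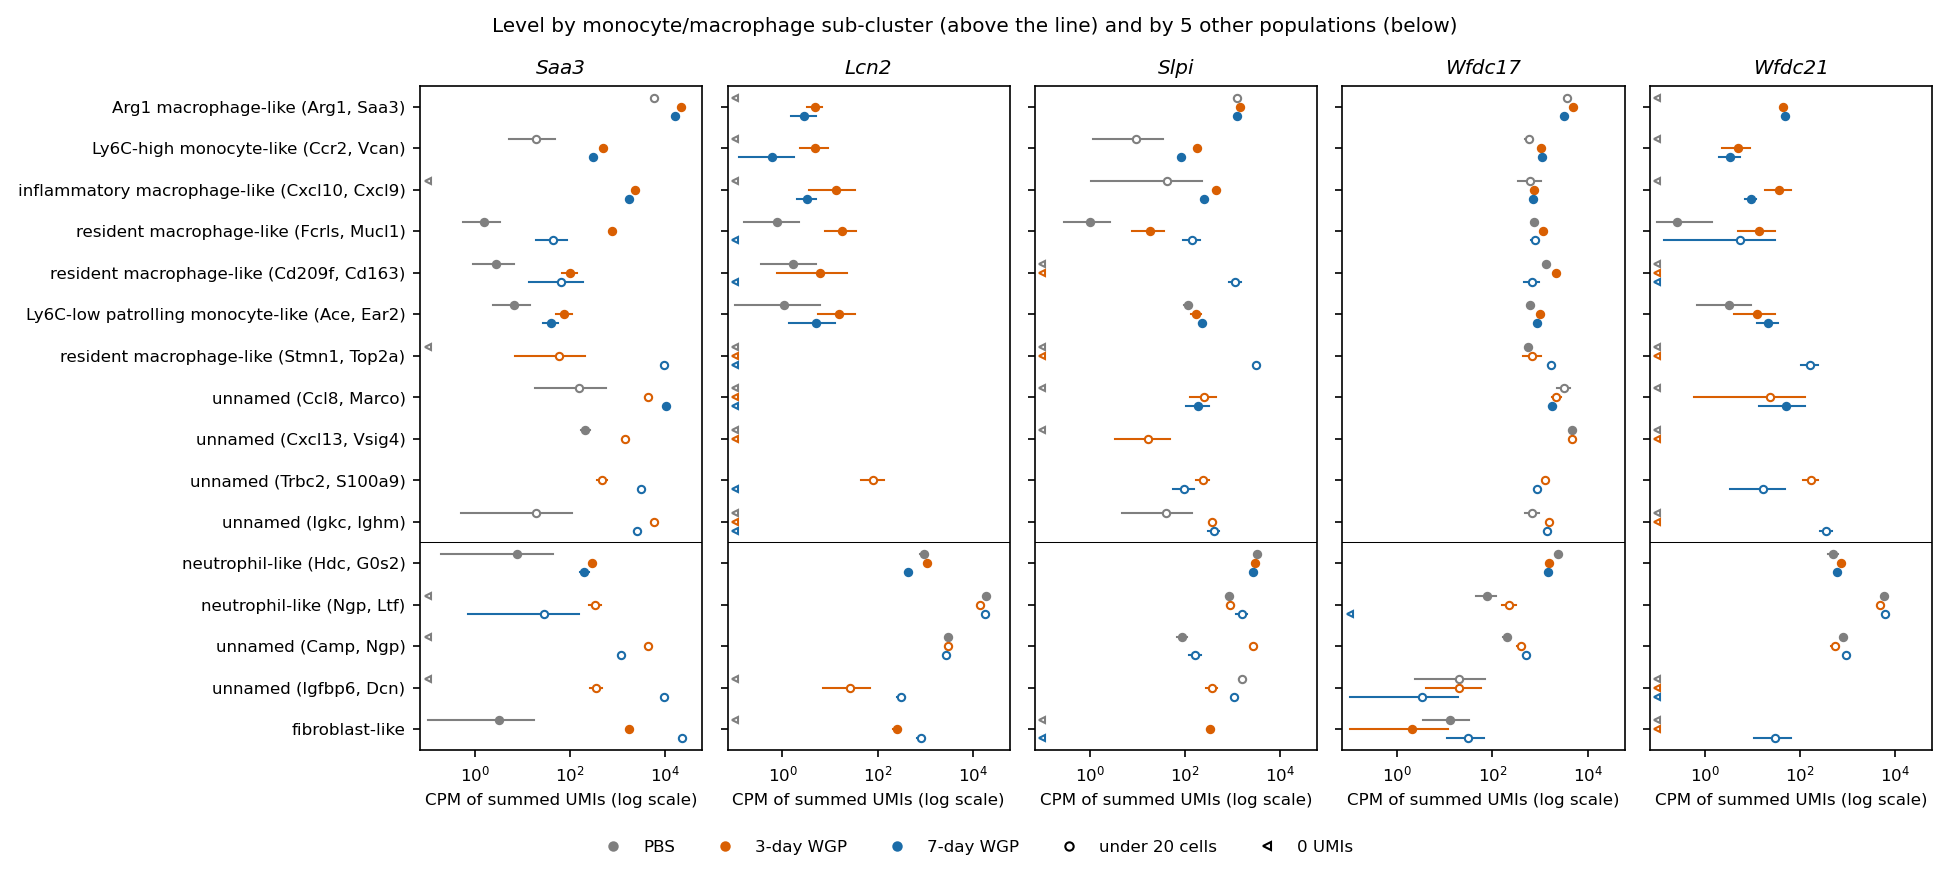
Level of each gene (x axis, CPM of summed UMIs, log scale) in the 11 sub-clusters of the monocyte/macrophage class (above the line) and in 5 other populations (below), each with its leading genes in brackets, by library (colour), with 95% counting intervals, open circles under 20 cells and arrowheads for 0 UMIs. After WGP, Saa3 and Slpi were highest in the Arg1 macrophage-like sub-cluster among monocyte/macrophage sub-clusters of at least 20 cells, Wfdc17 was above 500 CPM in every monocyte/macrophage sub-cluster with cells, and Lcn2 and Wfdc21 peaked in neutrophils led by Ngp and Ltf.

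Fibroblasts reached macrophage-like levels of Saa3 after WGP, from very few cells. Of 23 PBS fibroblasts 1 had a Saa3 UMI, as did 6 of 28 at 3 days and 6 of 9 at 7 days. The class summed to 1, 842 and 4438 UMIs (3.13, 1721 and 22143 CPM), of which the highest cell held 665 at 3 days and 2952 at 7 days. The values therefore describe a handful of cells in which Saa3 was very abundant. An unnamed cluster led by Igfbp6, Dcn and Enpp2 (7, 12 and 14 cells) was similar, at 0, 350.0 and 9485 CPM. At 7 days 1 of its cells held 1181 of 2840 UMIs. Lcn2 was also found in fibroblasts of both WGP libraries, and Slpi in those of the 3-day library.

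Neutrophils had a modest Saa3 level after WGP, at 2.63, 302 and 185 CPM from 1, 298 and 90 UMIs. If the class held free RNA in the amount given by its acinar markers, 114 and 69.1 Saa3 UMIs would be expected after WGP, and the observed numbers were 2.62 and 1.3 times these. Of the lymphoid and dendritic classes, gamma-delta T cells at 7 days also had more Saa3 UMIs than this estimate, 16 against 6.96. The others with at least 20 cells had fewer after WGP.

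Slpi had 3 main sources, whose balance differed between the libraries. In PBS plasma cells held 67.4% of the Slpi UMIs of kept cells, and after WGP the monocyte/macrophages held 61.3% and 62.3%. Of the named classes with at least 20 cells, neutrophils had the highest level in every library, at 1657 (1530 to 1791), 2685 (2584 to 2789) and 2580 (2439 to 2726) CPM. Plasma cells were at 403 (389 to 418), 179 (173 to 186) and 930 (897 to 964) CPM. Monocyte/macrophages, described next, were above plasma cells at 3 days and below them in the other libraries, and 28 fibroblasts were at 333 CPM at 3 days. Plasmacytoid dendritic cells were at 204, 158 and 173 CPM, with overlapping intervals between the libraries, and 1 cell held 21 of the 40 UMIs in PBS.

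In monocyte/macrophages Slpi was at 40.3 (36.1 to 44.9), 975 (957 to 994) and 477 (467 to 488) CPM. The log2 ratio to PBS was 4.597 (4.44 to 4.76) at 3 days and 3.56 (3.41 to 3.73) at 7 days. In PBS the 10 highest cells held 79.9% of the 334 UMIs, and without the 10 highest cells of each library the ratios were 6.48 and 5.34. Slpi thus followed Saa3 in being far above PBS at both times and lower at 7 days than at 3 days. Cells with a UMI were 1.49%, 24.8% and 15.8% of the class after thinning and 5.82%, 53.5% and 41.9% before. In B cells the thinned shares were 0.362%, 0.502% and 0.204%, and the unthinned shares 1.14%, 4.77% and 2.85%.

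In the Arg1 macrophage sub-cluster the summed Slpi level was 1247 (1087 to 1425), 1464 (1436 to 1493) and 1261 (1227 to 1295) CPM. Set against PBS, these gave log2 ratios of 0.23 (0.04 to 0.43) and 0.02 (-0.18 to 0.22). The PBS level came from 3 of 9 cells, 1 of which held 133 of the 217 UMIs. With the highest cell of each library left out, the levels were 552, 1390 and 1175 CPM and the ratios 1.33 and 1.09. The median over single cells was 0, 246 and 191 CPM. The ratio within the sub-cluster thus turned on 1 PBS cell, and with or without it was under that of the class. Outside it Slpi was at 14.4, 177 and 218 CPM, log2 ratios of 3.61 (3.33 to 3.91) and 3.92 (3.65 to 4.20). Ly6C-high monocytes were at 9.47, 179 and 82.5 CPM, and inflammatory macrophages at 41.4, 451 and 251 CPM, the first of these from 1 UMI.

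Patrolling monocytes were the only named sub-cluster with over 50 PBS cells in which Slpi exceeded 100 CPM in PBS, at 118, 169 and 233 CPM. In the resident macrophages led by Fcrls it was at 1.02, 18.2 and 142 CPM. Those led by Cd209f had no Slpi UMI in 210 PBS cells or in 44 cells at 3 days. At 7 days 9 such cells had 53 UMIs, of which 1 cell held 43, and the 8 cells of the proliferating sub-cluster had 482 UMIs (3159 CPM). Resident macrophages thus had 4 Slpi UMIs in all in PBS, and patrolling monocytes had 108.

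Within the Arg1 macrophage sub-cluster, Saa3 and Slpi both had a UMI in 261 of 399 cells at 3 days and in 190 of 275 at 7 days. Saa3 was in 362 and 265 of these cells and Slpi in 267 and 192, so that the 2 shares alone would give 242 and 185 cells with both. Across cells the Spearman correlation of their CPM was 0.522 and 0.471, and that of Saa3 with Wfdc17 was 0.537 and 0.329. These cells share a library and differ in depth, so the correlations are a description with no p. Saa3 with Lcn2 gave 0.042 and 0.122, from 14 and 6 cells with Lcn2.

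Slpi in plasma cells came from few of them. The 10 highest cells held 52.4%, 55.2% and 84.3% of the class's 3007, 3055 and 3004 UMIs, and 39.8%, 27.6% and 55.8% of the cells had a UMI at median depths of 28426, 25294 and 41473 UMIs. After thinning the shares were 14.8%, 7.05% and 20.8%. The unnamed cluster led by Igfbp6 had Slpi at 1590, 370 and 1095 CPM, and 1 cell held 159 of its 161 UMIs in PBS.

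Wfdc17 was the most widely detected member, with a UMI in 28.7%, 29.2% and 48.8% of kept cells without thinning. It was highest in monocyte/macrophages, neutrophils and conventional dendritic cells, in that order in all 3 libraries. Monocyte/macrophages were at 1093 (1071 to 1116), 3530 (3496 to 3565) and 1486 (1467 to 1504) CPM. A UMI was found in 47.3%, 75.6% and 54.9% of them after thinning and in 83.3%, 96.9% and 90.2% before, while B cells had 4.75%, 4.39% and 6.92% after thinning and 16.6%, 17.7% and 23.4% before.

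The log2 ratio of Wfdc17 to PBS in the class was 1.69 (1.66 to 1.72) at 3 days and 0.44 (0.41 to 0.48) at 7 days. Within the Arg1 macrophage sub-cluster it was 0.41 (0.30 to 0.53) and -0.18 (-0.29 to -0.06), from 3661, 4875 and 3237 CPM. In the rest of the class it was 0.36 (0.31 to 0.41) and -0.19 (-0.23 to -0.15), from 1038, 1333 and 908 CPM. The class ratio was therefore above the ratio of both of its portions at each time, and at 7 days of the opposite sign. TMM scaling, which moved the median log2 ratio of all genes in the class from -0.11 to 0.09 at 7 days, was not run for these portions. In every library Wfdc17 was higher in the Arg1 macrophages than in the rest of the class, and those cells were 1.11%, 53.0% and 18.9% of the class.

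Conventional dendritic cells had Wfdc17 at 360 (343 to 377), 221 (206 to 238) and 525 (504 to 546) CPM. It lay mainly in the cluster led by Retnla and Cd209a, at 593, 561 and 891 CPM, and less in that led by Xcr1, at 36.1, 43.2 and 147 CPM. The first of these clusters took its name at a score of 0.81, close to the limit of 0.75, so its name is less secure. In B cells it was at 46.5, 56.8 and 110 CPM, from 578, 286 and 330 UMIs against 184, 287 and 55.0 estimated from free RNA. The B cell level was thus close to the free RNA estimate at 3 days and above it in PBS and at 7 days. In the same 3-day B cells Saa3 had 149 UMIs where this estimate gave 619, so the estimate can be too high. Whether the 3-day Wfdc17 of B cells was free RNA was not tested.

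Neutrophils had Wfdc17 at 843, 1346 and 1334 CPM. The class joined 2 clusters, 1 led by Ngp and Ltf (29, 11 and 3 cells), which encode granule proteins made by immature neutrophils, and 1 led by Hdc and G0s2 (49, 214 and 179 cells) with Cxcr2, a receptor of mature neutrophils. The second cluster carried the Wfdc17, at 2334, 1557 and 1442 CPM, and the first was at 75.8, 224 and 0 CPM. In the Hdc cluster alone the log2 ratios to PBS were -0.58 (-0.77 to -0.40) and -0.69 (-0.89 to -0.49), where those of the class were 0.68 (0.50 to 0.86) and 0.66 (0.47 to 0.86). The direction for neutrophils therefore depended on which of them were counted.

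Slpi showed the same turn in neutrophils. The class had log2 ratios of 0.70 (0.57 to 0.82) and 0.64 (0.50 to 0.78). Over the 5798 genes measured in the class, the median log2 ratio with 10 CPM added was itself 0.36 and 0.25. The Wfdc17 ratios of the class stand beside the same median. The Hdc cluster had -0.11 (-0.26 to 0.04) and -0.29 (-0.46 to -0.13), from 3264, 3021 and 2663 CPM. In the Ngp cluster Slpi was at 830, 896 and 1542 CPM, the last from 3 cells.

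Lcn2 and Wfdc21 were neutrophil genes. Neutrophils held 68.8%, 73.4% and 42.3% of the Lcn2 UMIs and 68.4%, 70.1% and 41.9% of the Wfdc21 UMIs of kept cells. Much of the rest of Lcn2 (30.8%, 18.9% and 42.9%) was in an unnamed cluster led by Camp, Ngp and Prtn3 (29, 9 and 16 cells), which encode primary and secondary granule proteins. In that cluster Lcn2 was at 3046, 3047 and 2693 CPM, from 6, 3 and 4 cells. At 3 days 1 cell held 801 of the 820 UMIs, and without the highest cell of each library the levels were 2424, 80.6 and 1542 CPM. It also held 26.4%, 7.46% and 25.5% of the Wfdc21 (146 of 147 UMIs in 1 cell at 3 days), while monocyte/macrophages held 0.179%, 18.7% and 31.3%.

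**Figure D4:**
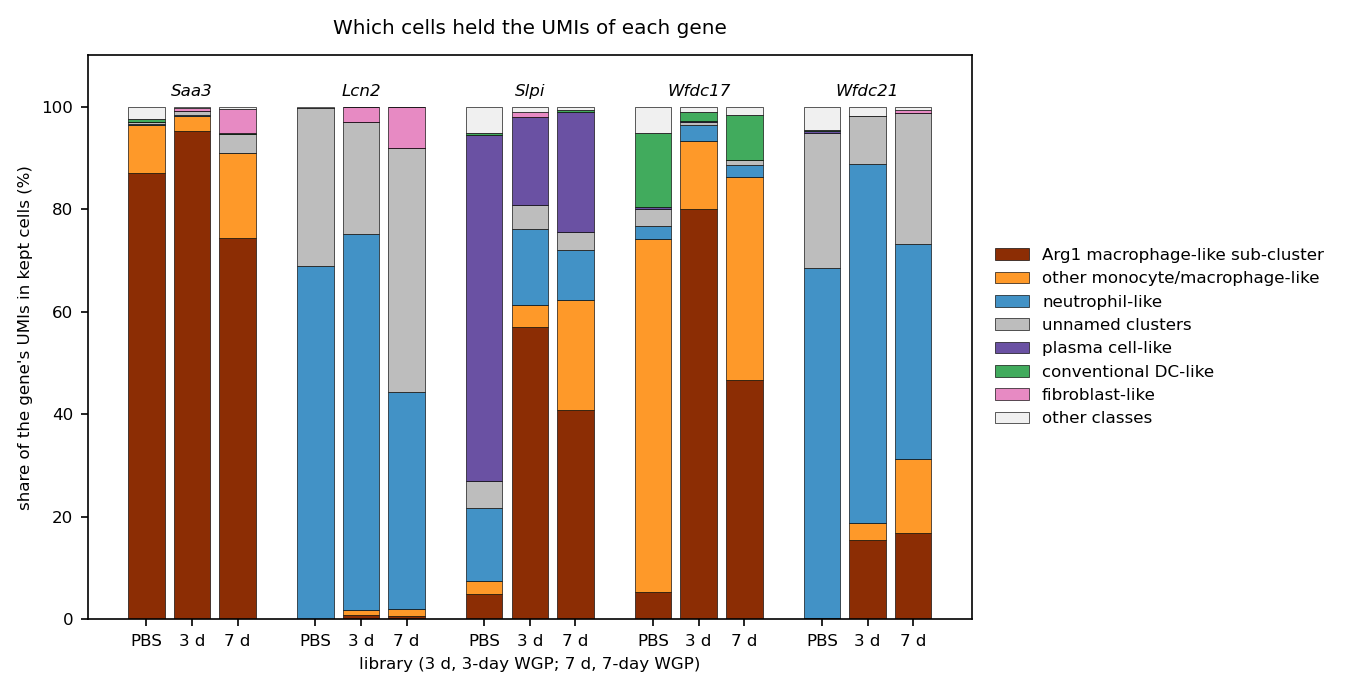
Share of the UMIs of each gene in kept cells (y axis, percent, stacked to 100) that lay in each cell class, with the Arg1 macrophage-like sub-cluster shown apart from the rest of its class, for each library (x axis). Saa3 lay in the Arg1 macrophage-like sub-cluster (87.1%, 95.2% and 74.4%), Slpi lay mostly in plasma cells in PBS (67.4%), and Lcn2 lay mostly in neutrophils and unnamed clusters.

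In the neutrophil class Lcn2 was at 12851 (12493 to 13216), 3226 (3115 to 3340) and 1748 (1632 to 1870) CPM. The log2 ratios to PBS were -1.99 (-2.06 to -1.93) and -2.88 (-2.99 to -2.77). Wfdc21 was at 4025, 1398 and 1023 CPM, and its log2 ratios were -1.53 (-1.63 to -1.42) and -1.98 (-2.13 to -1.83). Both genes were thus lower in neutrophils of the WGP libraries than in those of PBS. Of the 5 members, 1 (Saa3) was 2-fold or more higher in neutrophils at both times, beside 17.2% and 17.0% of the 5798 genes measured there, and 2 (Lcn2 and Wfdc21) were lower, beside 4.07% and 6.11%. Saa3, at 2.63 CPM in PBS neutrophils, passed the filter of 10 CPM only through the WGP libraries.

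The 2 neutrophil clusters gave another picture. In the Ngp cluster Lcn2 was at 18984 (18448 to 19531), 14535 (13944 to 15146) and 17870 (16521 to 19299) CPM, and every cell of the 29, 11 and 3 had a UMI. In the Hdc cluster it was at 930.4 (771 to 1113), 1101 (1031 to 1175) and 445 (385 to 511) CPM. The log2 ratio at 3 days was -0.39 (-0.46 to -0.31) in the first and 0.24 (-0.03 to 0.53) in the second, against -1.99 in the class. At 7 days it was -0.09 (-0.21 to 0.03) and -1.06 (-1.40 to -0.72). In PBS 1 cell of the Hdc cluster held 45 of its 120 Lcn2 UMIs, and with the highest cell of each library left out the ratios there were 0.75 and -0.55. The Ngp cluster was 29 of 78 neutrophils in PBS, 11 of 225 at 3 days and 3 of 182 at 7 days.

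Wfdc21 behaved likewise. In the Ngp cluster it was at 5836, 4952 and 6085 CPM, and its log2 ratios were -0.24 (-0.37 to -0.11) and 0.06 (-0.15 to 0.26). In the Hdc cluster it was at 504, 730 and 614 CPM, and the ratios were 0.53 (0.16 to 0.93) and 0.29 (-0.11 to 0.70). Neither cluster had a ratio near that of the class, which is -1.53 and -1.98.

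**Figure D5:**
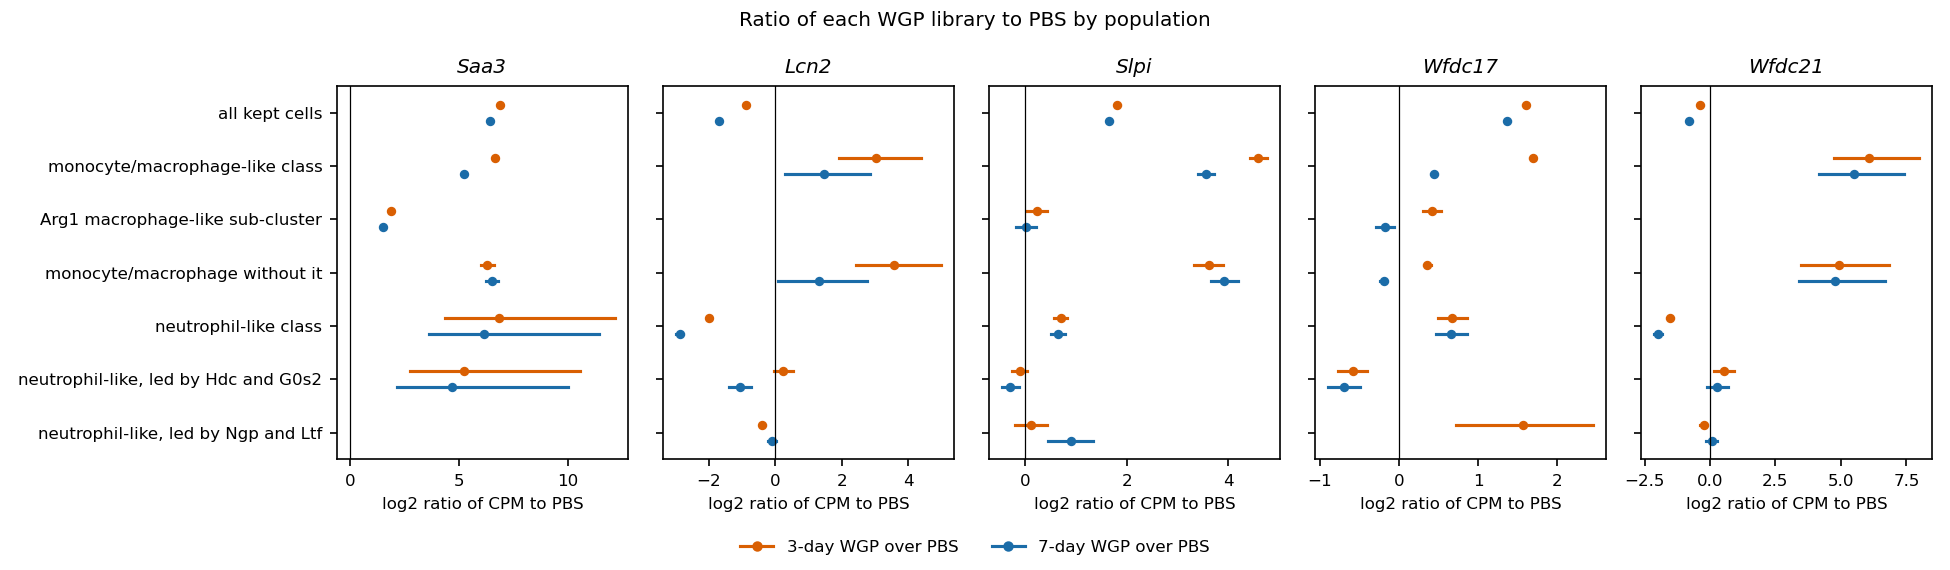
Log2 ratio of CPM to PBS (x axis, a separate scale for each gene) for 3-day and 7-day WGP (colour) in 7 populations (y axis), with exact 95% counting intervals and without ratios that have 0 UMIs on 1 side. The class ratios of Slpi and Wfdc17 in monocyte/macrophages and of Lcn2 and Wfdc21 in neutrophils were larger in size than the ratios within the clusters that make up these classes, apart from Slpi outside the Arg1 macrophage-like sub-cluster.

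Outside neutrophils and the cluster led by Camp, Lcn2 was low in immune cells. Monocyte/macrophages were at 0.845 (0.340 to 1.74), 6.88 (5.43 to 8.60) and 2.32 (1.65 to 3.17) CPM, from 7, 77 and 39 UMIs. The log2 ratios were 3.03 (1.91 to 4.39) and 1.46 (0.28 to 2.87). Its mean level there was under the 10 CPM that was asked of a gene before it was counted. Cells with a UMI were 0.124%, 0.93% and 0.0687% after thinning and 0.866%, 4.91% and 1.65% before, where B cells had none after thinning and 0.0517%, 0.125% and 0% before. The neutrophil markers S100a8, at 27.9, 219 and 78.8 CPM in the class, and S100a9, at 30.4, 199 and 54.5 CPM, were also higher after WGP, and their part in the Lcn2 and Wfdc21 of this class was not tested.

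Fibroblasts also had Lcn2 after WGP. They were at 0, 256 (213 to 304) and 803 (684 to 937) CPM, from 0 of 23, 6 of 28 and 4 of 9 cells, of which the highest held 57 of 125 and 83 of 161 UMIs after WGP. Against a floor of 3 UMIs in PBS, Lcn2 was higher by a log2 ratio of at least 4.77 in 3-day WGP and 6.42 or more in 7-day WGP. The cluster led by Igfbp6 had Lcn2 at 0, 26.4 and 314 CPM. Slpi in fibroblasts was at 0, 333 and 0 CPM, and 1 cell held 141 of the 163 UMIs at 3 days.

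Wfdc21 was also seen in monocyte/macrophages after WGP, at 0.483 (0.132 to 1.24), 32.9 (29.6 to 36.4) and 22.1 (19.9 to 24.5) CPM from 4, 368 and 371 UMIs. The log2 ratios were 6.09 (4.72 to 7.97) and 5.52 (4.15 to 7.40). In the Arg1 macrophage sub-cluster it was at 0, 43.9 and 47.8 CPM, and 59 of 399 and 42 of 275 cells had a UMI, of which 58 and 41 also had Saa3. Thinned shares in the class were 0.124%, 1.99% and 1.3%, and unthinned shares 0.371%, 11% and 5.63%. B cells were at 1.03%, 0.878% and 0.407% thinned and 2.58%, 1.88% and 1.02% unthinned. The macrophage shares were above those of B cells after WGP and below them in PBS, but the thinned intervals overlapped in each library. At 3 days the thinned intervals were 1.12% to 3.26% in macrophages and 0.354% to 1.8% in B cells. After WGP the 10 highest cells held 58.7% and 59.6% of the class's Wfdc21 UMIs. At 7 days 1 cell of the unnamed sub-cluster led by Igkc held 50 of the 371 UMIs.

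In monocyte/macrophages as a whole, 4 of the 5 members passed the filter of a mean of 10 CPM over the libraries, all but Lcn2. Of these 4 were 2-fold or more higher at 3 days, beside 3.57% of the 7616 genes measured in the class, and 3 at 7 days (Saa3, Slpi and Wfdc21), beside 4.15%. None was 2-fold lower, where 2.98% and 5.15% of genes were. Wfdc21, at 0.483 CPM in PBS, passed the filter only through the WGP libraries and could not be counted as lower. Since the members were picked for being higher after WGP, nothing is read from these counts.

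The sex of the cells differed between the libraries and moved with the comparison in monocyte/macrophages. Cells with Xist, which is transcribed in female cells, were 777, 74 and 578 of the class, and cells with chromosome Y transcripts 3, 482 and 578. Within Xist cells alone Saa3 was at 136, 7987 and 4478 CPM, log2 ratios of 5.88 and 5.04. In the Arg1 macrophages Saa3 was at 25865 CPM in Xist cells and 20323 CPM in Y cells at 3 days, and at 15085 and 18836 CPM at 7 days. The PBS level of the same sub-cluster was 5759 CPM, from 9 cells, and the part of sex in the other differences was not tested.

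Slpi and Wfdc21 differed more between the 2 kinds of cell. In the Arg1 macrophages Slpi was at 4000.1 CPM in 16 Xist cells and 1350.4 CPM in 298 Y cells at 3 days, and at 1711 and 819 CPM in 104 and 125 cells at 7 days. Wfdc21 was at 0 and 50.5 CPM at 3 days and at 4.93 (2.26 to 9.36) and 85.4 (72.4 to 100.1) CPM at 7 days. Of the Wfdc21 UMIs in these macrophages 278 of 305 and 152 of 199 were thus in Y cells, Slpi was higher in Xist cells, and the animal a cell came from is not given, so sex and animal cannot be told apart. Few cells weighed heavily here. The 10 highest cells of the sub-cluster held 214 of the 305 and 148 of the 199 Wfdc21 UMIs, and single cells reached 22050 and 32235 CPM of Slpi. The counting intervals do not cover this spread between cells.

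Free RNA was measured in barcodes of 1 to 100 UMIs, too few for a cell. Saa3 was at 112 (101.7 to 123), 4205 (4141 to 4270) and 4357 (4297 to 4417) CPM there. Slpi was at 94.7, 514 and 356 CPM. Wfdc17 was at 798, 1946 and 1410 CPM. These 3 genes were higher in free RNA after WGP, with log2 ratios of 5.23 and 5.28 for Saa3, 2.44 and 1.91 for Slpi and 1.29 and 0.82 for Wfdc17. Lcn2 was at 66.7, 69.5 and 22.8 CPM, and Wfdc21 at 26.8, 43.1 and 14.7 CPM. Wfdc21 was thus higher than in PBS at 3 days and lower at 7 days, and the Lcn2 level at 3 days was not distinguishable from PBS, with a log2 ratio of 0.06 (-0.19 to 0.31). Saa3 in free RNA was similar at 3 and 7 days, with a log2 ratio of 0.05 (0.02 to 0.08), whereas in the macrophages it was lower at 7 days.

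The amount of free RNA in a class was gauged by acinar cell markers, digestive enzyme genes that immune cells lack, at 8835, 5020.0 and 9392 CPM in free RNA. B cells carried them at 1.86%, 2.93% and 1.3% of that level. For Saa3, B cells were at 1.15%, 0.704% and 0.619% of the free level, that is 16, 149 and 81 UMIs where the acinar markers gave 25.8, 619 and 170. Plasma cells had 37 UMIs at 3 days where the estimate was 697, and conventional dendritic cells 86 where it was 390. The Saa3 UMIs of these classes were thus under the estimate in every library. In monocyte/macrophages Saa3 stood at 120%, 319% and 114% of its free level, against 9.17%, 2.25% and 1.03% for the acinar markers, so that 1109, 149884 and 83180 UMIs were found where 85.0, 1060 and 754 were estimated. B cells also held more Wfdc21 than estimated, 98, 34 and 6 UMIs against 6.18, 6.35 and 0.571. With the estimate subtracted, the log2 ratios of Saa3 in the class were 6.75 and 5.31.

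The 2 gene families were otherwise nearly silent in these cells. Saa1, the liver acute-phase form, had 1, 1 and 4 UMIs in all kept cells, and Saa2 and Saa4 had none. Of 20 other genes with whey acidic protein domains none passed the filter of 10 CPM in monocyte/macrophages. Wfdc18, which lies between Wfdc17 and Wfdc21, had 80, 118 and 109 UMIs in all kept cells, and Wfdc2 had 32, 14 and 4. Reads that fit more than 1 of these related genes could be missing from the counts.

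The other genes of the pathway came from lists of receptors, proteases, acute-phase proteins, cytokines and transcription factors, and their change in monocyte/macrophages is given as log2 of the ratio to PBS with 10 CPM added. Over all lists 37 of 95 genes passed the filter. Of these 18 were 2-fold or more higher at each time, beside 3.57% and 4.15% of the 7616 genes measured in the class. At both times 15 were higher, beside 174 of the 7616 genes. Lower were 3 and 5, beside 2.98% and 5.15%. The median was 0.75 and 0.82, beside a median of -0.04 and -0.11 over the 7616 genes. The same shares stand beside the counts of each list below. Adding 50 CPM instead left 9 and 10 higher. Genes under 10 CPM in PBS passed the filter only through the WGP libraries and could not be counted as lower. All these values are sums over the whole class, whose sub-clusters differed in share between the libraries. They were not split by sub-cluster, so a change within a kind of macrophage cannot be read from them.

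Receptors for serum amyloid A were mixed. Of 7 past the filter (11 in the list), 3 were higher at both times and 1 and 2 lower, with medians of 0.37 and -0.14. Fpr2, the formyl peptide receptor that binds serum amyloid A, was at 12.6, 258 and 264 CPM (3.57 and 3.60). Fpr1, a related receptor, was at 7.36, 75.6 and 61.0 CPM (2.30 and 2.03). Tlr2, a pattern receptor, was at 90.9, 207 and 220 CPM (1.10 and 1.19). On the lower side, P2rx7, an ATP-gated channel, was at 103, 44.0 and 32.9 CPM (-1.07 and -1.40). The lipid scavenger receptor Cd36 was at 329, 428 and 138 CPM (0.37 and -1.19).

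Of a list of lipocalin 2 receptors and partners and of serine proteases, 2 of 7 passed the filter and moved apart. Elane and Ctsg, which encode the neutrophil elastase and cathepsin G that SLPI blocks, did not pass it. Mmp9, a gelatinase that forms a complex with lipocalin 2, was at 82.7, 24.6 and 3.28 CPM (-1.42 and -2.80). Mmp9 was among the leading genes of the resident macrophages led by Cd209f, which held 21.4%, 2.84% and 0.275% of the UMIs of the class. Prtn3, which encodes neutrophil proteinase 3, was at 7.12, 54.1 and 47.4 CPM (1.90 and 1.75).

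Of the other secreted acute-phase proteins 7 of the 11 past the filter (33 in the list) were higher at each time, with medians of 1.69 and 1.23. The genes higher at both times were 5, namely Cfb, Hp, C3, S100a8 and Il1rn. S100a8 is also a neutrophil marker, and was among the leading genes of an unnamed sub-cluster led by Trbc2 and S100a9 (0, 15 and 8 cells). Cfb, complement factor B, was at 15.8, 155 and 217 CPM (2.68 and 3.14). Hp, which encodes the haemoglobin scavenger haptoglobin, was at 82.3, 415 and 477 CPM (2.20 and 2.40). C3, the central complement component, was at 73.6, 259 and 565 CPM (1.69 and 2.78). Lower were Cp, the copper carrier ceruloplasmin, at 95.1, 29.7 and 9.41 CPM (-1.41 and -2.44), and C4b, a complement gene, at 271, 202 and 73.2 CPM (-0.40 and -1.75). Cd14, the lipopolysaccharide co-receptor, was at 275, 470 and 602 CPM (0.75 and 1.10).

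Of the cytokines that induce the acute phase and their receptors, 8 passed the filter (14 in the list). Of these 5, all cytokines, were 2-fold or more higher at both times, and none was 2-fold lower. The medians of the 8 were 1.59 and 1.30. Il1a and Il6, at 1.57 and 1.45 CPM in PBS, passed the filter only through the WGP libraries. Il1b was at 67.1, 545 and 1474 CPM (2.85 and 4.27), and was among the leading genes of the inflammatory macrophages (2, 23 and 527 cells). Osm, which encodes oncostatin M of the IL-6 family, was at 14.967, 66.3 and 118 CPM (1.61 and 2.36). Il1a was at 1.57, 31.5 and 30.7 CPM (1.84 and 1.81). Tnf (1.61 and 1.32) and Il6 (1.57 and 1.27) were the others. The 3 receptors past the filter were between -0.69 and -0.11.

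Among 9 acute-phase transcription factors past the filter, 2 were higher at each time and none lower, with medians of 0.24 and 0.44. Cebpb, which encodes C/EBPβ, was at 605, 1873 and 2006 CPM (1.61 and 1.71). Nfkbiz, an atypical IκB that turns on secondary response genes, was at 127, 280.5 and 232 CPM (1.08 and 0.82). Nfkb2 was at 29.2, 39.6 and 73.5 CPM (0.34 and 1.09).

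Genes with the most similar pattern were sought over 35 pairs of class and library with at least 20 cells, among 8072 genes, by the Pearson correlation of log2(CPM + 10). The pairs share libraries, and the values are a description with no p. Saa3 was closest to Cfb (0.835), Gpnmb (0.824), Gdf15 (0.815), Fam20c (0.799) and Marco (0.785). Slpi was closest to Trib1 (0.848), Tmem38b (0.796), Aldh3b1 (0.769), Rbm47 (0.765) and Csf2rb (0.753).

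The neutrophil pair had far closer neighbours. Lcn2 was closest to Camp (0.949), Ngp (0.947), Ltf (0.946), Retnlg (0.946) and Mmp8 (0.942). Wfdc21 was closest to S100a8 (0.991), S100a9 (0.990), Mmp8 (0.989), Trem1 (0.987) and Retnlg (0.986), and Lcn2 and Wfdc21 correlated with each other at 0.931. Among the genes closest to Wfdc17 were Ccl6 (0.965), Gpr141 (0.952), Lst1 (0.944) and Igsf6 (0.943). Saa3 correlated less with its fellow members, at 0.458 with Slpi and 0.598 with Wfdc17.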

How the data were processed

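The deposited values are counts of UMIs per gene and barcode that the authors made with Cell Ranger 3.1.0 on the mm10 genome from 10x Genomics 3′ libraries (chemistry v3.1), not normalized, with 6794880 barcodes listed per library. The libraries held 52464690, 56849043 and 48219246 UMIs (PBS, 3-day WGP, 7-day WGP). The 5 genes and the 6 gene lists were chosen with earlier results of these data known.

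Barcodes with at least 1000 UMIs were kept if at most 30% of their UMIs were mitochondrial and 40% ribosomal. Scrublet's automatic limit marked 1, 5 and 6 cells, so the highest scores were removed up to 0.8% per 1000 cells (205, 177 and 133 cells), a step chosen after that was seen. Shared barcodes between libraries numbered 10, 1 and 6. The 3 libraries were clustered jointly in scanpy 1.11.5 (2000 variable genes, 30 principal components, resolution 1) without the 5 genes, the list genes, or sex-linked, mitochondrial, ribosomal and immunoglobulin variable genes. The 44 clusters were named from marker lists (mean log2 fold of at least 0.75 with 20 CPM added, 3 markers, a margin of 0.5). These limits, and the rule that leaves clusters of low median UMIs without a name, were set after the clusters were seen. Unnamed clusters held 4.56%, 4.07% and 6.05% of cells. Monocyte/macrophages were clustered again at a resolution of 0.5. Every marker of each named class was detected in its pooled UMIs, which also hold free RNA, so this is no check of the names. The dendritic cell cluster led by Retnla and Cd209a was named at a score of 0.81, with 4 of 10 markers raised.

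UMIs were summed per class and library. CPM have exact Poisson intervals, log2 ratios exact conditional binomial intervals and shares exact Clopper-Pearson intervals. With 1 library per group no p-value was computed. A gene counted as higher or lower at a 2-fold change with 10 CPM added to both levels, if its mean over the libraries was at least 10 CPM. Where PBS had 0 UMIs a floor of 3 was used. Shares of cells were computed after thinning each cell to 1000 UMIs. The sums and intervals were tested on simulated data. Named from each list were genes past a 2-fold change at either time, at most the 3 highest and 3 lowest by the mean of both log2 ratios; others are named where a count is 5 or fewer. TMM factors came from edgeR 4.0.16. Positions are from GENCODE vM21 and promoter sequences from RefSeq. 1 gene that the likeness rule names for Wfdc17 is not reported here.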

Additional observations from a re-analysis of the deposited data

Results flagged for a closer look

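Barcodes of over 100 and under 1000 UMIs entered neither the cells nor the free RNA, and 4 of the 5 genes were above PBS in them at both times. Saa3 was at 1447.7 CPM in 3-day WGP and 1035.8 CPM in 7-day WGP, against 25.5 CPM in PBS. Slpi was at 166.4 and 101.15 CPM against 26.8 CPM. Wfdc17 was at 668.17 and 338.26 CPM against 151 CPM. Lcn2 was at 14.08 and 30.75 CPM against 1.38 CPM, from 11, 38 and 2 UMIs. Wfdc21 was at 11.52 and 4.05 CPM against 2.75 CPM, a log2 ratio of 2.07 (0.22 to 4.22) at 3 days and 0.56 (-1.66 to 2.89) at 7 days. In PBS each of these 4 genes was lower there than in barcodes of 1 to 100 UMIs. What these barcodes hold was not tested.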

How the results depend on the processing

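No paired analysis was possible because each group has 1 library. The counts of members 2-fold or more higher in monocyte/macrophages stayed within 1.5 times under all 15 alternatives (3 to 5 at 3 days, 2 to 3 at 7 days). Saa3 in that class stayed higher than in PBS, but its log2 ratio of 6.65 at 3 days and 5.21 at 7 days moved. It was 5.65 and 4.22 with a minimum of 500 UMIs, 7.01 and 5.41 without barcodes over 10000 UMIs, 5.62 and 4.13 without the mitochondrial and ribosomal limits, and 5.74 and 4.30 with doublets kept. TMM factors, which moved the median over all genes from -0.04 to 0.07 and from -0.11 to 0.09, gave 6.78 and 5.47, DESeq2 size factors 6.79 and 5.48, the mean over cells 7.12 and 5.61, Xist cells alone 5.88 and 5.04, and subtracting free RNA 6.75 and 5.31. Without the 10 highest cells it was 11.51 and 9.95, and Slpi was at 6.48 and 5.34. Chosen after seeing the data were leaving out unnamed sub-clusters (6.75 at 3 days), the Arg1 macrophage sub-cluster (6.31 and 6.50), both of these (7.73 and 8.64), the highest cell of each population or the Ngp neutrophil cluster, and the neutrophil alternatives. Adding 50 CPM left 9 list genes higher at 3 days, 10 at 7 days and 0 lower at 3 days, against 18, 18 and 3. Neutrophil ratios changed sign without the Ngp cluster, to 0.24 for Lcn2 at 3 days, -0.11 and -0.29 for Slpi, -0.58 and -0.69 for Wfdc17, and 0.53 and 0.29 for Wfdc21. Of these, the intervals of Lcn2 and Slpi at 3 days and of Wfdc21 at 7 days included 0. Lcn2 at 7 days stayed lower, at -1.06. Without barcodes over 10000 UMIs, Wfdc17 was at -0.069 and -0.16 and Slpi at 7 days at -0.019. The causes were not tested. Y cells alone were not run, since PBS had 3 such macrophages. Depth limits Lcn2 and Wfdc21 in PBS macrophages, with 7 and 4 UMIs.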
